A study of Homo sapiens with 36 samples.

Results

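MDA231 (MDA-MB-231) and BT549 are triple-negative breast cancer cell lines, and their gene expression was compared without DUSP4 knockdown or MEK inhibition. MDA231 is a line with a mutated RAS pathway, and BT549 is a line deficient in the tumour suppressor RB1. The comparison used 6 of the 36 arrays of the study, 3 titled as MDA231 siCONTROL and 3 titled as BT549 siCONTROL, lettered A, B and C in each line. The other 30 arrays held the same lines under other treatments and another triple-negative line, SUM159PT. All 17958 genes with a single-symbol probe entered the test.

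Untreated here means control-treated. The cells of both groups were reverse transfected with 10 nM control siRNA, received DMSO as the vehicle of the drug, and were harvested 96 h after transfection. The other groups received 10 nM siRNA against DUSP4, or control siRNA with 1 uM of the MEK inhibitor selumetinib (AZD6244) for 4 h or 24 h before harvest. MDA231 was grown in DMEM and BT549 in RPMI, so the line and its medium cannot be told apart. The labels do not say that the letters stand for separate cultures. A p-value here weighs the lines against the scatter of arrays within groups, pooled over the 12 groups of all 36 arrays. That scatter may be technical. For 24 of the 36 arrays, among them the 3 titled BT549 used here, the source name gives the other of SUM159PT and BT549, and the title and the cell line field were followed.

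The RAS, RAF, MEK and ERK kinases form a cascade that passes growth signals to transcription factors of the ETS and AP-1 families, and ERK also induces its own brakes, the DUSP phosphatases and the Sprouty and SPRED inhibitors. RB1 restrains the E2F factors and entry into S phase until cyclin D with CDK4 or CDK6 phosphorylates it, and CDKN2A and CDKN2B encode inhibitors of those kinases. Triple-negative lines of the mesenchymal type are known for high vimentin, little E-cadherin and a lack of hormone receptors.

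On the arrays both lines were bright for vimentin and dim for E-cadherin and the hormone receptors. VIM, which encodes vimentin, read 12.15 ± 0.02 on the log2 scale in MDA231 and 11.89 ± 0.06 in BT549 (mean ± SD, n = 3 arrays in each line, here and below). CDH1 (E-cadherin), ESR1 (oestrogen receptor) and PGR (progesterone receptor) had means of 5.04 or less in both lines, under 5.27, the median of all probe values. The table has no detection measure, so that median serves only as a mark for dim probes. ERBB2 read 7.32 in each line. Of 19 measured markers of blood, endothelial and fibroblast cells, 12 were under the mark in both lines, PTPRC, CD3E, VWF and HBB among them. In MDA231 3 were higher and 2 lower (15.8% and 10.5%, against 8.07% and 8.65% of all genes). Those 5 were PECAM1 (7.37 in MDA231, 4.74 in BT549), CD68 (10.88 and 9.46) and TIE1 (5.61 and 4.27) on the higher side, the second PECAM1 probe differing by 0.36 without a call, and FAP (4.21 and 6.38) and ACTA2 (7.01 and 8.16) on the lower side. Their part in the results was not tested.

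The median signal of the 6 arrays lay between 5.16 and 5.28 and the upper quartile between 7.89 and 8.03, and each array correlated with the others of its line at 0.9926 to 0.995. Across lines the 9 pairs of arrays correlated at 0.9407 to 0.9459, over all probes, which are not independent replicates. Each mean rests on the 3 arrays of a line, and the limma standard errors use the scatter pooled over all 12 groups.

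The expression profiles of the lines differed widely. A gene was called different at an adjusted p under 0.05 in limma (Benjamini-Hochberg over all 17958 genes) together with a difference of at least 2-fold. By that rule 3004 genes (16.7%) were called, 1450 higher in MDA231 (8.07% of genes tested) and 1554 lower (8.65%). The median difference over all genes was -0.02 on the log2 scale. At least 4-fold differences counted 614 genes higher in MDA231 (3.42%) and 426 lower (2.37%), and at least 16-fold differences 107 (0.596%) and 83 (0.462%). For all 3004 called genes the 3 arrays of one line lay above the 3 of the other, against 4585 genes (25.5%) with MDA231 above and 5584 (31.1%) with BT549 above among all tested. The lower line was under the dim mark for 689 of the genes higher in MDA231 and 440 of those lower, and a fold against so dim a level is uncertain. SUM159PT, measured on 3 further control arrays, lay nearer to MDA231 for 51.9% of the genes higher in MDA231 and for 68.5% of the genes lower there.

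**Figure D1:**
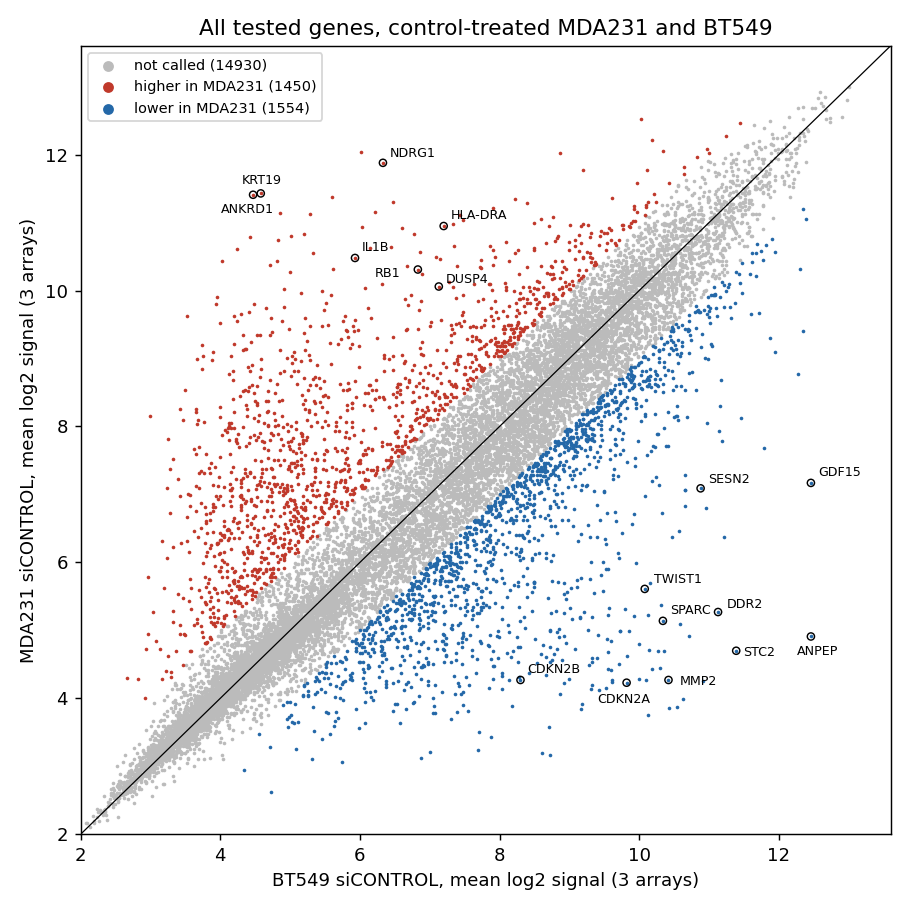
Mean log2 signal of each gene in the 3 BT549 control arrays (x axis) and the 3 MDA231 control arrays (y axis), one point a gene, with genes called at an adjusted p under 0.05 and at least 2-fold in colour and the line of equality drawn. The called genes spread on both sides, 1450 above and 1554 below; 24 tested genes, Y-linked or marking X inactivation, are not drawn.

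Because the source names contradict the titles, the comparison was also made with the arrays titled SUM159PT in the place of BT549. It then gave 1327 genes higher and 1260 lower in MDA231. Class II genes had 8 higher and 1 lower by either label, and ERK output and feedback genes 13 higher and 0 lower in place of 9 and 1. Of the 37 lists compared, 14 moved by more than 3 genes in a direction, the ERK list among them. Integrated stress and amino acid genes had 8 higher and 3 lower in place of 1 and 11, interferon response genes 1 and 17 in place of 8 and 5, and p53 targets 5 and 3 in place of 0 and 3. E2F, G1/S and DNA replication genes had 17 and 0 in place of 5 and 1, and G2/M and mitosis genes 11 and 1 in place of 3 and 1. Collagens and matrix genes had 4 and 19 in place of 8 and 10, proteases 11 and 5 in place of 7 and 6, and epithelial and luminal genes 6 and 4 in place of 10 and 6. Class I genes had 0 and 5 in place of 1 and 0, glycolysis and hypoxia genes 5 and 4 in place of 10 and 1, and lysosome genes 2 and 1 in place of 1 and 5. WNT genes had 3 and 2 in place of 3 and 6, and HOX genes 3 and 3 in place of 2 and 10. The other 23 moved by at most 3 in each direction, among them Notch genes (0 and 4 in place of 3 and 4), cancer-testis antigens (0 and 5 in place of 2 and 2) and cholesterol and fatty acid synthesis (1 and 4 in place of 3 and 1). RB1, in which BT549 is deficient, read 6.83 in the arrays titled BT549 and 9.40 in those titled SUM159PT. The source names would thus give the RB1-deficient line the higher of these 2 signals. The counts that follow use the titles. They are to be read beside 8.07% of all genes called higher and 8.65% called lower in MDA231.

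The genes for which the lines are known came first. RB1 read 10.40, 10.31 and 10.22 in MDA231 and 6.71, 7.01 and 6.78 in BT549, a difference of 3.48 ± 0.09 (limma SE; adjusted p = 2.2e-25), or 11.2-fold. The BT549 arrays were clearly the low ones, although they remained above the dim mark, and SUM159PT read 9.40 ± 0.01. The arrays titled BT549 were therefore the lowest of the 3 lines for RB1. CDKN2A, the CDK4 and CDK6 inhibitor of chromosome 9, showed the opposite order, with 4.07, 4.22 and 4.41 in MDA231 and 9.70, 9.90 and 9.86 in BT549, 48-fold lower in MDA231 (log2 difference -5.59 ± 0.16; adjusted p = 1.8e-24). Its neighbour CDKN2B read 4.27 ± 0.09 in MDA231 and 8.30 ± 0.22 in BT549. Both inhibitors were also dim in SUM159PT, at 4.12 and 4.31. NF2, which encodes the Hippo pathway protein merlin, read 6.98, 7.40 and 7.30 in MDA231 and 9.56, 9.55 and 9.78 in BT549 (log2 difference -2.40 ± 0.11; limma adjusted p = 2.3e-19), with SUM159PT at 9.11. MDA231 was the lowest of the 3 lines for NF2. No array of one line overlapped those of the other for any of these 4 genes, as for all 3004 called genes. Among all genes tested, the 3 MDA231 arrays lay above in 25.5% and the 3 BT549 arrays in 31.1%.

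Of 14 measured genes among RB family members, CDK inhibitors, D cyclins and CDKs, 3 were higher and 3 lower in MDA231 (21.4% each, against 8.07% and 8.65% of all genes) and 8 were not called. CCND2, which encodes cyclin D2, read 10.26, 10.38 and 10.19 in MDA231 and 4.71, 5.15 and 5.15 in BT549 (38.8-fold; limma adjusted p = 1.2e-25). Its signal was bright in every MDA231 array and dim in every BT549 array. CCND1 (cyclin D1) was 3.43-fold higher in MDA231, at 10.98 ± 0.11 against 9.20 ± 0.08, although its second probe differed by 0.07 only. CDK4 stood at the 2-fold limit, 10.69 against 11.69, and CDK6 (10.04 and 9.71) and the related RBL1 (9.11 and 8.74, with a second probe at -0.06) were not called.

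Among 32 genes of E2F, G1/S and DNA replication, 5 were higher and 1 lower in MDA231 (15.6% and 3.12%, against 8.07% and 8.65% of all genes), with a list median difference of 0.23. E2F7, a repressor of the E2F family, read 11.08 ± 0.05 in MDA231 and 8.76 ± 0.09 in BT549, 5-fold higher. POLE2, a subunit of DNA polymerase epsilon, was 4.38-fold higher and RRM1, the large subunit of ribonucleotide reductase, 3.44-fold higher. The licensing factors and inhibitors GINS2 and GMNN were 2.07-fold and 2.01-fold higher. E2F2 went the other way, 4.58 in MDA231 and 6.37 in BT549, and CCNE1 (cyclin E1), at 6.86 and 7.78, was under the 2-fold limit. Of 25 G2/M and mitosis genes 3 were higher and 1 lower (12% and 4%), near the 8.07% and 8.65% of all genes. CCNA2, CCNB2 and the proliferation marker MKI67 were higher, each by 2.04-fold to 2.24-fold, and the phosphatase CDC25B was lower by 2.66-fold. The other 21 were not called.

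Of 17 measured RAS, RAF, MEK and ERK genes 1 was called (5.88%, against 16.7% of all genes), and the median difference was 0.04. With no minimum fold 5 were higher and 4 lower, where 48.1% of all genes passed. A repeated quantile normalization, or leaving out MDA231 array C, each gave 2 called genes in place of 1. The called gene was NF1, which encodes the RAS inactivator neurofibromin: it read 8.05, 8.31 and 8.14 in MDA231 and 10.39, 10.59 and 10.62 in BT549 (5.15-fold lower; limma adjusted p = 2.9e-20), and all 3 of its probes were called lower. SUM159PT, at 10.39, lay with BT549.

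Of 29 ERK output and feedback genes, 9 were higher and 1 lower in MDA231 (31% and 3.45%), and the median difference was 0.51. ETV1, an ETS family transcription factor, had the largest difference of the list, with 9.86, 9.95 and 9.92 in MDA231 and 4.11, 4.04 and 3.70 in BT549 (62.4-fold; limma adjusted p = 1.7e-29). All MDA231 arrays were far above the dim mark and all BT549 arrays below it. Several feedback genes were higher in MDA231 as well. DUSP4, the nuclear MAP kinase phosphatase that the study targets, read 10.15, 10.03 and 9.99 in MDA231 against 7.03, 7.16 and 7.20 in BT549 (7.6-fold; limma adjusted p = 2.6e-16), and SUM159PT was level with BT549 at 7.14. DUSP6, the cytoplasmic ERK phosphatase, was 3.37-fold higher in MDA231 (11.36 ± 0.17 and 9.61 ± 0.05). The inhibitors SPRED1, SPRY4 and SPRY2 were 4.46-fold, 3-fold and 2.72-fold higher, the pseudokinase gene TRIB2 2.54-fold and the immediate early gene EGR1 2.45-fold. EPHA4, an ephrin receptor, was the member that was lower, by 2.07-fold.

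Over the 13 measured members of the DUSP family, DUSP4, DUSP6 and DUSP10 (8.58 and 6.53) were higher in MDA231 (23.1%) and none was lower at 2-fold. DUSP1 (10.30 and 9.59) and DUSP5 (10.56 and 9.73) had higher means in MDA231 under the 2-fold limit, and DUSP7 read 10.82 and 10.74. Of 11 FOS, JUN and ATF subunits, FOS was 2.3-fold higher (9.09% of the list), while JUND (7.73 and 8.84) and the stress-inducible ATF3 (5.42 and 6.81) were lower (18.2%).

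**Figure D2:**
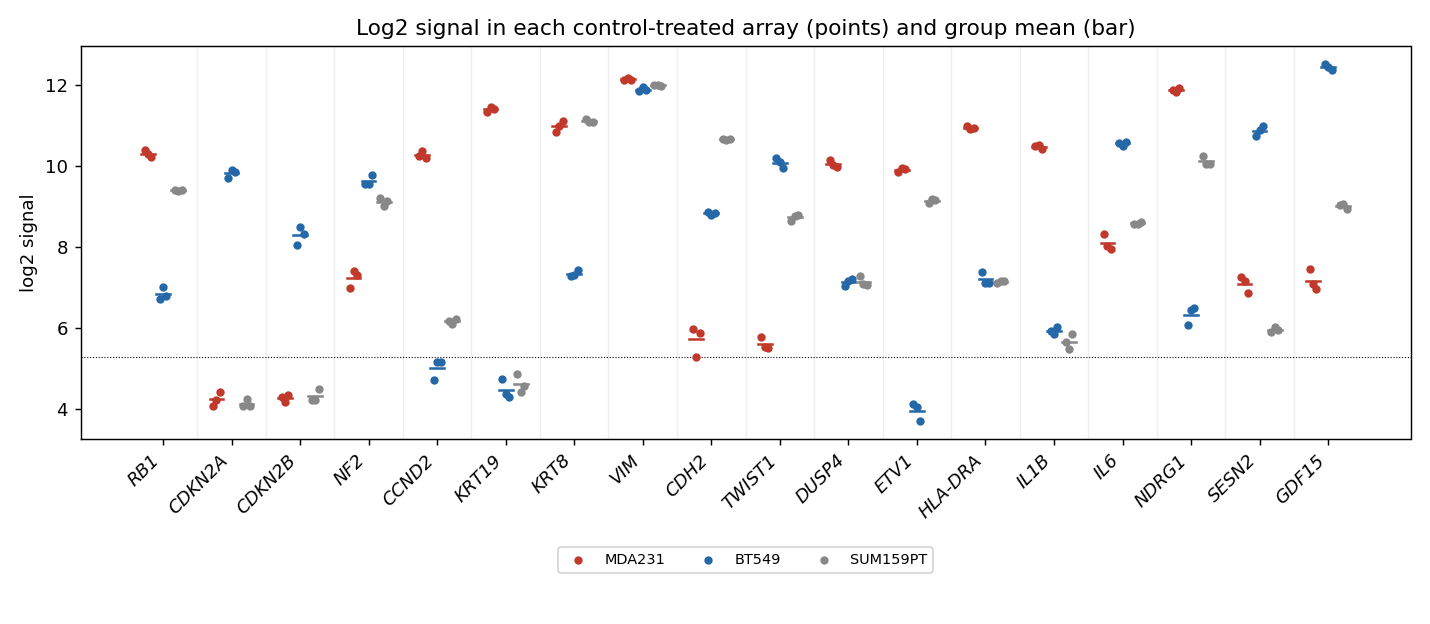
Log2 signal of 18 genes in each control array (points) with the mean of the 3 arrays (bar), for MDA231, BT549 and SUM159PT; the dotted line marks the median of all probe values, 5.27. The arrays of a line lie close together for each gene, while MDA231 and BT549 stand apart for RB1 (10.31 and 6.83), CDKN2A (4.23 and 9.82) and DUSP4 (10.06 and 7.13) and lie close for VIM (12.15 and 11.89).

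Growth factor ligands were more often higher in MDA231. Of 20 measured ligands of EGF family and other receptors, 8 were higher and 2 lower (40% and 10%, against 8.07% and 8.65% of all genes). TGFA, a ligand of EGFR, read 8.37, 8.41 and 8.0 in MDA231 and 4.38, 4.30 and 4.49 in BT549 (14.6-fold; limma adjusted p = 1e-19). The other EGFR ligands HBEGF (10.96 and 9.01) and EREG (10.18 and 8.78) were higher too, as were PDGFD (7.89 and 4.82) and VEGFC (9.48 and 7.45). NRG1, the ligand of ERBB3 and ERBB4, was 2.74-fold lower in MDA231, and KITLG, the ligand of KIT, 4.45-fold lower. EPGN (epigen), an EGFR ligand that the list did not hold, was among the 20 named protein-coding genes with the largest lower values, at 3.20 against 8.61. EGFR itself read 10.17 ± 0.08 and 10.83 ± 0.10, which is 1.58-fold and under the limit. Of 32 receptor tyrosine kinases 2 were higher and 4 lower (6.25% and 12.5%), shares near those of all genes. The collagen receptor DDR2 read 5.25, 5.37 and 5.18 in MDA231 and 11.09, 11.22 and 11.08 in BT549, 58.3-fold lower (limma adjusted p = 2.5e-30), and the TAM receptor MERTK was 7.29-fold higher, at 8.10 and 5.24. AXL, another TAM receptor, read 11.63 and 10.67, and MET 10.85 and 10.98, both without a call.

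Keratin, junction and cadherin genes were found at both extremes. The gene furthest above BT549 was KRT19, a keratin of simple epithelia, with 11.35, 11.47 and 11.41 in MDA231 and 4.74, 4.37 and 4.30 in BT549 (123-fold; limma adjusted p = 5.2e-28). SUM159PT was as dim as BT549 for it, at 4.62. Of 31 epithelial and luminal genes 10 were higher and 6 lower in MDA231 (32.3% and 19.4%), with a median difference of 0.00. The ETS factor EHF of epithelial cells (10.75 and 4.82), the tight junction gene CLDN7 (8.37 and 4.50), KRT8 (10.98 and 7.34) and EPCAM (8.39 and 4.89) were among the higher. The desmosomal cadherin DSG2 (10.43 and 4.03), outside the list, was 84.4-fold higher. CLDN1, a further tight junction gene, ran the other way, with 8.77 ± 0.09 in MDA231 and 12.28 ± 0.08 in BT549, as did MUC1 (5.28 and 8.46) and the luminal transcription factor GATA3 (6.36 and 8.50). The epithelial genes were split between the lines.

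In the list of epithelial-mesenchymal transition (EMT) transcription factors and cadherins, 9 of 19 members were lower and 3 higher in MDA231 (47.4% and 15.8%, against 8.65% and 8.07% of all genes). The other 7 were not called, and the median difference was -0.74. TWIST1 read 5.78, 5.53 and 5.51 in MDA231 and 10.19, 10.10 and 9.96 in BT549, 22.3-fold lower (limma adjusted p = 5.9e-27). CDH3 (P-cadherin) was 50.5-fold lower, at 4.70 and 10.35, and CDH2 (N-cadherin) 8.74-fold lower, at 5.71 and 8.84. The homeobox gene PRRX1 (4.37 and 7.67), CDH6 (4.58 and 7.68), TCF4 (6.38 and 9.29) and ZEB2 (7.97 and 9.18) were lower too, although the second ZEB2 probe differed by 0.13 in the other direction and was not called. ZEB1 was bright in both lines (10.02 and 10.53), SNAI2 differed by less than 2-fold (9.43 and 8.54), and both of them were without a call. SOX9 (9.84 and 7.93) and FN1, which encodes fibronectin (11.42 and 10.21), were on the higher side, although the second FN1 probe differed by 0.05 only. SUM159PT sided with BT549 for TWIST1 (8.73) and CDH2 (10.66), and with MDA231 for PRRX1 (5.21).

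Of 37 collagens and matrix genes, 8 were higher and 10 lower in MDA231 (21.6% and 27%, against 8.07% and 8.65% of all genes). SPARC, a matricellular protein gene of mesenchymal cells, read 4.83, 5.38 and 5.20 in MDA231 and 10.60, 10.26 and 10.16 in BT549 (36.8-fold lower; limma adjusted p = 4.3e-27). COL5A2 (4.09 and 7.47), POSTN (4.07 and 7.36) and COL3A1 (4.46 and 6.78) were lower and dim in MDA231. The basement membrane genes NID2 (4.27 and 10.10) and the collagen chaperone gene FKBP10 (4.91 and 10.72), both among the 20 largest, pointed the same way. The laminin chain LAMB3 (11.22 and 7.90), the transmembrane collagen COL13A1 (8.07 and 5.09) and THBS1 (11.05 and 8.60) were higher in MDA231. Integrins gave 5 higher and 3 lower of 20 (25% and 15%), with the collagen-binding ITGA2 at 12.02 against 8.87, ITGB4 at 9.48 against 7.62 and ITGB3 at 7.28 against 9.06.

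Proteases split in the same manner, 7 higher and 6 lower of 31 (22.6% and 19.4%, against 8.07% and 8.65% of all genes). MMP2, which encodes gelatinase A, read 3.96, 4.37 and 4.47 in MDA231 and 10.42 in all 3 BT549 arrays, 71.1-fold lower (limma adjusted p = 5.7e-30), and SUM159PT read 11.48. MMP1, the interstitial collagenase, was the reverse, 12.52 ± 0.15 and 10.03 ± 0.15. PLAT, the tissue plasminogen activator, read 12.12, 12.08 and 11.93 in MDA231 and 6.0, 6.01 and 6.05 in BT549 (65-fold; limma adjusted p = 1.7e-29). The inhibitor gene TIMP3 (9.55 and 4.89) and ADAM8 (9.59 and 5.21) were higher in MDA231, whereas ADAM12 (6.46 and 10.57), the cathepsin gene CTSL (9.40 and 12.35) and MMP16 (7.72 and 10.38) were lower.

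The largest lower value of all belonged to ANPEP, which encodes aminopeptidase N (CD13), with 5.28, 4.94 and 4.50 in MDA231 and 12.52, 12.41 and 12.45 in BT549 (188-fold; limma adjusted p = 5e-30). STC2, a secreted glycoprotein gene, was 103-fold lower, the helix-loop-helix repressor MSC 102-fold, NETO2, an auxiliary subunit of glutamate receptors, 99.8-fold, and the synaptotagmin gene SYT14 95-fold. THY1 (CD90) was 57.7-fold lower and ENG (CD105) 22-fold lower, while CD44 was equally bright at 12.07 and 12.12. On the other side, after KRT19, stood ANKRD1 (115-fold), EDIL3 (83.1-fold), the actin-bundling LCP1 (82.4-fold), S100A16 (78.4-fold) and IL18 (68-fold). The lower line was dim in 16 of the 20 largest higher and 19 of the 20 largest lower genes, taken without regard to gene type.

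**Figure D3:**
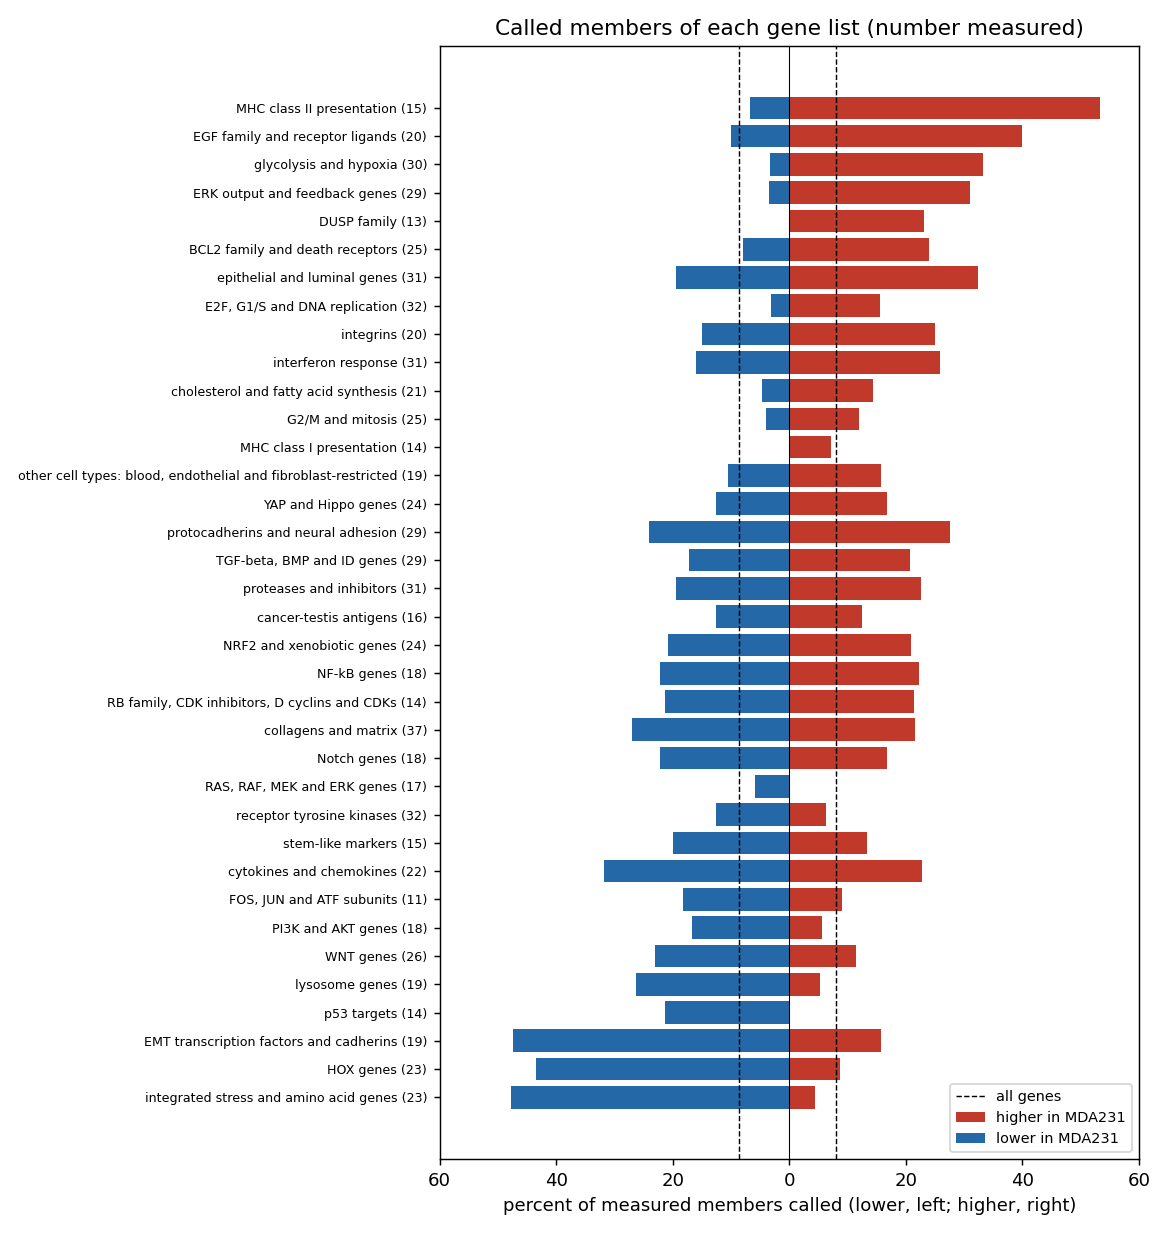
Percent of the measured members of each gene list that were called higher (right, red) or lower (left, blue) in MDA231, with the number measured in brackets and dashed lines at the percent over all genes (8.07 and 8.65). MHC class II presentation reaches 53.3% on the higher side, and integrated stress and amino acid genes reach 47.8% on the lower side.

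ANKRD1 is a known target of the Hippo pathway factor YAP. It read 11.52, 11.37 and 11.39 in MDA231 and 4.83, 4.32 and 4.60 in BT549 (limma adjusted p = 9.4e-28). Over the 24 YAP and Hippo genes 4 were higher and 3 lower (16.7% and 12.5%, against 8.07% and 8.65% of all genes). The targets F3, which encodes tissue factor (10.32 and 5.61), and CCN2 (10.75 and 9.08) were higher, the target CCN1 (11.49 and 11.13) and the factor YAP1 (11.18 and 10.89) were not called, and NF2, TEAD2 (6.41 and 7.86) and TEAD4 (8.05 and 9.15) were lower.

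MHC class II genes showed the highest share of higher calls among the lists, 8 of 15 (53.3%), with 1 lower and a median difference of 1.1. HLA-DRA, the alpha chain of HLA-DR, read 10.99, 10.92 and 10.94 in MDA231 and 7.37, 7.12 and 7.11 in BT549 (13.5-fold; limma adjusted p = 7.4e-19). HLA-DPB1 (10.25 and 6.89) and the invariant chain gene CD74 (10.99 and 8.50) were also higher, and each of the 3 probes of HLA-DRA and of HLA-DPB1 was called. These genes have close paralogs whose probes may share signal. CIITA, the transactivator of the class II genes, read 5.57 ± 0.08 and 5.56 ± 0.12, close to the dim mark in both lines, and RFXANK, a subunit of the factor that binds class II promoters, was 2.41-fold lower in MDA231. Class I genes differed less. Of 14, only ERAP2 (7.14%) was called (6.37 and 4.73), HLA-B read 11.53 and 11.54, and the median difference was -0.37.

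Interleukin 1 genes were higher in MDA231, and IL6 with several chemokines was higher in BT549. Of 22 cytokine and chemokine genes 5 were higher and 7 lower (22.7% and 31.8%, against 8.07% and 8.65% of all genes). IL1A read 9.31, 9.15 and 8.92 in MDA231 and 4.55, 4.10 and 4.32 in BT549 (27.9-fold; limma adjusted p = 1e-22), and IL1B read 10.48 ± 0.05 and 5.93 ± 0.08 (23.3-fold). IL18, of the same family, was 9.62 and 3.53. IL11, IL24 and CXCL8 were 3.5-fold, 2.26-fold and 2.11-fold higher. IL6 was 5.51-fold lower in MDA231, with 8.33, 8.03 and 7.94 against 10.58, 10.50 and 10.60, and both of its probes were called. CCL5 (4.13 and 8.04), CXCL5 (5.69 and 8.50), CXCL10 (3.91 and 6.50) and CCL2 (6.19 and 8.31) were lower as well. NF-kB genes were even, 4 higher and 4 lower of 18 (22.2% each), with PTGS2 (9.42 and 5.80) up and RELB (6.90 and 8.78) and SOD2 (9.19 and 11.04) down. The interferon response gave 8 higher and 5 lower of 31 (25.8% and 16.1%). Among them were GBP2 (7.78 and 4.22) and IFITM1 (9.0 and 6.41) on the MDA231 side. On the BT549 side were IRF1 (7.14 and 9.25) and IFI44L (5.67 and 8.21).

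Glucose and hypoxia genes were higher in MDA231 in 10 of 30 cases and lower in 1 (33.3% and 3.33%), and their median difference was 0.61. NDRG1, a hypoxia-inducible gene, read 11.87, 11.84 and 11.93 in MDA231 and 6.07, 6.43 and 6.49 in BT549 (46.8-fold; limma adjusted p = 5.8e-27). The glucose transporter genes SLC2A3 (9.10 and 5.06) and SLC2A1 (12.21 and 10.19), the fructose bisphosphate regulator PFKFB4 (8.37 and 5.34), the aldolase ALDOC (8.34 and 5.89) and the lactate dehydrogenase LDHA (12.47 and 11.44) were all higher. EPAS1, which encodes HIF-2 alpha, was the one lower member, by 4.12-fold, and HIF1A (12.01 and 11.32) was not called. Other glycolytic enzymes such as GAPDH and ENO1 differed by less than 2-fold. Cholesterol and fatty acid synthesis gave 3 higher and 1 lower of 21 (14.3% and 4.76%), with INSIG1 at 10.11 against 8.08 and SQLE, squalene epoxidase, at 8.73 against 10.13.

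Integrated stress response and amino acid genes were lower in MDA231 in 11 of 23 cases and higher in 1 (47.8% and 4.35%), with a median difference of -0.99. The response slows translation and raises the factor ATF4, which with its partners induces genes of amino acid import and synthesis. SESN2, which encodes a sensor of leucine, read 7.09 ± 0.20 in MDA231 and 10.88 ± 0.13 in BT549 (13.8-fold lower, limma adjusted p = 1.2e-20). CHAC1, a glutathione-degrading enzyme, read 6.11, 6.35 and 6.55 against 9.15, 9.74 and 9.63 (9.01-fold). The transcription factor DDIT3 (8.30 and 11.16) and the pseudokinase gene TRIB3 (7.71 and 10.41) were lower in MDA231 as well. Serine synthesis was represented by PHGDH (8.19 and 10.22) and PSAT1 (9.08 and 10.71), asparagine synthesis by ASNS (8.75 ± 0.04 and 10.15 ± 0.10), and amino acid import by SLC7A5 and SLC3A2, 2.74-fold and 2.54-fold lower. The probes of ATF4 itself pointed in opposite directions, -0.67 (10.27 and 10.95) and 0.60, both under the 2-fold limit. Outside the list, the one-carbon enzyme ALDH1L2 (4.43 and 10.18) and CBS, cystathionine beta-synthase (4.71 and 10.14), were among the 20 largest lower protein-coding genes. CTH, the enzyme that acts on the product of CBS, was the one higher member, 8.41 and 6.21. SUM159PT was low with MDA231 for SESN2 (5.95), CHAC1 (4.91), DDIT3 (8.07), TRIB3 (7.69) and ASNS (7.67), and high with BT549 for PHGDH (10.50).

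The sequence bound by ATF4 with a C/EBP partner is known as the C/EBP-ATF response element. For each gene of the list a single annotated start was used. The 250 bases before it were searched for the letters TGATGNAA on both strands. The match was present in 2 of the 11 genes called lower in MDA231, ASNS and CHAC1, and in 1 of the 8 other members matched. Of the 23 members 19 were matched by symbol (not PSPH, SHMT2, SLC7A11 or SLC7A3). With every start counted, 1104 of 35116 promoters of the whole table (3.14%) and 451 of 19637 promoters of genes on the array (2.3%) held it. Both promoters are shown because they hold the match among the lower genes, from RefSeq on GRCh38.p14, 5′ to 3′ on the gene's strand, with the match in capitals. ASNS lies on the minus strand at chr7:97872409-97872658, and CHAC1 on the plus strand at chr15:40953221-40953470, where the match is on the other strand.
ASNS: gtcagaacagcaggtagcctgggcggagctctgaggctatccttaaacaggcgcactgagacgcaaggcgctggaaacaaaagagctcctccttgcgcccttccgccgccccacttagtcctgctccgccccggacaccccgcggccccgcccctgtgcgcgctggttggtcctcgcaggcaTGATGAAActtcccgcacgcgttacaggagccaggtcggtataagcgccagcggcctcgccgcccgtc
CHAC1: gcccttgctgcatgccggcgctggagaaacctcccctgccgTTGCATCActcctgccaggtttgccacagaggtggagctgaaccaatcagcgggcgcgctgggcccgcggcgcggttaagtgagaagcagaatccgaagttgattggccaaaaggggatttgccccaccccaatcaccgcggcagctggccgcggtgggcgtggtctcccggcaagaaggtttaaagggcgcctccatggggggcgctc
The match began 68 bases before the start of ASNS and 209 bases before that of CHAC1. It is a description of these letters and not a measured site.

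**Figure D4:**
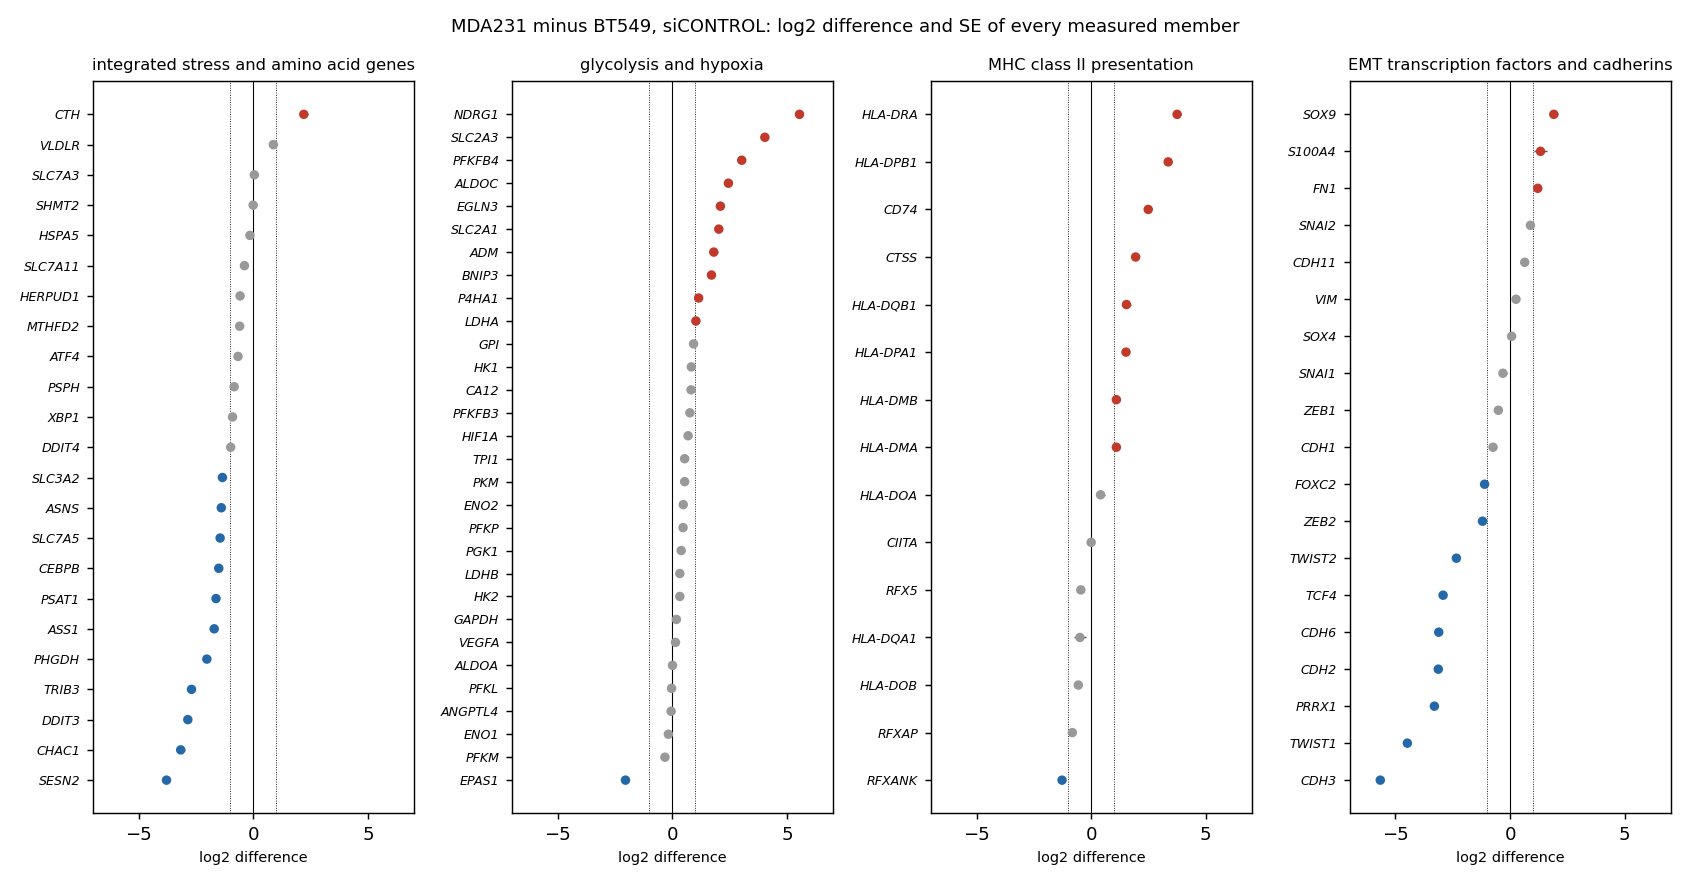
Log2 difference between MDA231 and BT549 (points) with its standard error for every measured member of 4 gene lists, with dotted lines at 2-fold; red points were called higher in MDA231, blue points lower, and grey points were not called. Integrated stress genes reach from 2.20 (CTH) to -3.79 (SESN2), and glycolysis and hypoxia genes from 5.55 (NDRG1) to -2.04 (EPAS1).

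GDF15, a stress-induced cytokine gene that also belongs to the p53 targets, read 7.46, 7.09 and 6.96 in MDA231 and 12.53, 12.46 and 12.38 in BT549 (39.1-fold lower; limma adjusted p = 4.6e-21). Of 14 measured p53 targets none was higher and 3 were lower (21.4%, against 8.65% of all genes). The 3 were GDF15, SESN2 and the repair gene XPC (6.09 and 7.41), and the median difference was -0.58. MDM2 (10.06 and 10.06) and CDKN1A (7.42 and 7.72) did not differ at 2-fold. SESN2 and GDF15 are also known targets of the integrated stress response. NRF2 and xenobiotic genes were even, 5 and 5 of 24 (20.8% each). HMOX1, heme oxygenase (7.28 and 10.65), and CYP1B1 (7.78 and 11.18) were lower, and the aldo-keto reductase AKR1C3 (8.78 and 4.85) was higher. Lysosome genes gave 1 higher and 5 lower of 19 (5.26% and 26.3%), the lower including the cathepsins CTSH (7.66 and 9.58) and CTSB (11.05 and 12.39).

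Signalling pathways of development were each split between the lines. In the TGF-beta, BMP and ID list 6 of 29 were higher and 5 lower (20.7% and 17.2%, against 8.07% and 8.65% of all genes). ID2 and ID3, helix-loop-helix inhibitors induced by BMP signals, read 4.15 and 6.01 in MDA231 and 7.85 and 9.31 in BT549 (12.9-fold and 9.83-fold lower). The ligand BMP4 (9.48 and 7.0) was higher and BMP7 (4.20 and 7.56) lower, and the activin antagonist FST (9.79 and 6.69) and SMAD3 (10.43 and 8.13) were higher. In the WNT list 3 of 26 were higher and 6 lower (11.5% and 23.1%), the higher share being near that of all genes. The antagonist DKK1 read 11.44, 11.38 and 11.29 in MDA231 and 6.20, 5.45 and 5.14 in BT549 (54.6-fold; limma adjusted p = 6.3e-22), with the BT549 arrays further apart than most. LEF1, the transcription factor, was 10.8-fold higher, whereas the antagonists DKK3 (5.74 and 9.11) and SFRP1 (4.29 and 6.87) were lower; the second DKK3 probe differed by 0.04 only. In the Notch list 3 of 18 were higher and 4 lower (16.7% and 22.2%). The ligand JAG1 (9.75 and 4.66) and the coactivator MAML3 (8.52 and 4.33) were on the higher side. The ligand DLL1 (4.74 and 6.98) and the target HEY1 (5.76 and 9.30) were on the lower.

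Of 25 genes of the BCL2 family and death receptors 6 were higher and 2 lower (24% and 8%, against 8.07% and 8.65% of all genes). TNFRSF10D, a decoy receptor of TRAIL, read 11.33, 11.18 and 11.39 in MDA231 and 6.29, 6.52 and 6.60 in BT549 (28.5-fold; limma adjusted p = 6.2e-23). The TRAIL gene TNFSF10 itself (7.24 and 4.32), the receptor TNFRSF10A (8.92 and 7.41) and the protease gene CASP1 (6.83 and 4.51) were higher. The 2 lower members were XIAP, which encodes an inhibitor of apoptosis (6.34 and 7.54, 2.3-fold), and BCL2L11, which encodes the killer protein BIM (2.13-fold). BCL2 was level at 6.42 and 6.50.

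HOX genes, which hold positional identity, were lower in MDA231 in 10 of 23 measured cases and higher in 2 (43.5% and 8.7%). HOXB2 read 3.09, 3.15 and 3.23 in MDA231 and 8.81, 8.63 and 8.76 in BT549 (47.5-fold; limma adjusted p = 2.3e-29). HOXC10 (4.12 and 6.63), HOXC8 (5.89 and 8.02), HOXC9 (3.60 and 5.63) and 6 further members of the B and C clusters were lower, and HOXB9 (8.07 and 5.66) and HOXD4 (6.88 and 5.61) were higher. Neural adhesion and guidance genes gave 8 higher and 7 lower of 29 (27.6% and 24.1%). MCAM (9.16 and 5.86) and SEMA3A (10.72 and 8.09) were on the higher side and the netrin receptor UNC5B (4.99 and 9.85) on the lower.

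The same line contrast was made in the arrays of each other treatment, which share no array with the control comparison. All of these contrasts use the same scatter pooled over the 36 arrays, so their calls are not independent. The line difference kept its sign in 1437, 1438 and 1441 of the 1450 genes higher in MDA231 under siDUSP4 and after 4 h and 24 h of selumetinib, and in 1532, 1553 and 1545 of the 1554 lower genes. Of the higher genes 1131 (78.0%) were called higher under siDUSP4, 1123 (77.4%) after 4 h of selumetinib and 1248 (86.1%) after 24 h, and 926 (63.9%) in all 3. Of the lower genes 1079 (69.4%), 1466 (94.3%) and 1067 (68.7%) were called lower, and 843 (54.2%) in all 3. Those overlaps were 77.0%, 94.3% and 70.6% of the genes called higher under the respective treatment and 72.6%, 66.0% and 84.7% of those called lower. The genes called higher and lower numbered 1469 and 1487 under siDUSP4 (8.18% and 8.28% of genes tested), 1191 and 2222 at 4 h (6.63% and 12.4%), and 1767 and 1259 at 24 h (9.84% and 7.01%). At 4 h the split depended on scaling, with 1547 and 1524 after a repeated quantile normalization, as it did at 24 h, with 1591 and 1463; shifting arrays to a common median gave 1649 and 1481 at 4 h and 1472 and 1594 at 24 h. The MDA231 4 h arrays B and C and the BT549 24 h array A had the lowest upper quartiles of their groups, 7.48, 7.66 and 7.50, and their part in those splits was not tested.

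Treatment changed the size of the line difference for a minority of genes, at an adjusted p under 0.05 for the interaction. The interaction was called for 2394 genes with siDUSP4 (13.3% of genes tested), for 211 with 4 h (1.17%) and for 1611 with 24 h of selumetinib (8.97%). Among the 3004 genes of the control comparison the numbers were 847, 104 and 657. The 3 interactions share the control arrays and are not independent. The line difference moved up, towards MDA231, in 1319 (7.34%) and down in 1075 genes (5.99%) with siDUSP4, in 24 (0.134%) and 187 (1.04%) at 4 h, and in 1144 (6.37%) and 467 (2.6%) at 24 h. Scaling changed those splits: a repeated quantile normalization gave 1808 and 1869, 134 and 194, and 1072 and 1133, and a common median gave 1134 and 2262, 60 and 155, and 612 and 1622. The count of 211 at 4 h also rested on single arrays. It was 3714 without MDA231 4 h array A, 90 without B and 88 without C, 105 and 108 without BT549 4 h array A or B, 119 and 111 without MDA231 control array B or C, and 131 and 110 without BT549 control array A or B. At 24 h the split was 733 up and 729 down without BT549 array A.

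Genes of both kinds were followed under treatment, the line genes first. RB1 differed by 2.28 under siDUSP4, 3.35 after 4 h and 3.19 after 24 h of selumetinib. Its interaction was called with siDUSP4 (-1.20 ± 0.13; limma adjusted p = 8.5e-08), where BT549 read 8.03 ± 0.10 against 6.83 in its controls and MDA231 read 10.31 in both, and it was not called after 4 h or 24 h of selumetinib (limma adjusted p = 0.67 and 0.17). KRT19 differed by 6.25, 6.61 and 6.98 in the same order, with a called interaction under siDUSP4 (-0.69 ± 0.21; limma adjusted p = 0.024) and none with selumetinib (limma adjusted p = 0.45 and 0.94). CDKN2A differed by -6.05, -5.77 and -5.75 with no called interaction (limma adjusted p = 0.22, 0.75 and 0.73). DUSP4 read 7.64 ± 0.18 in MDA231 and 4.89 ± 0.40 in BT549 after its knockdown, against 10.06 and 7.13 in the controls, and its line difference was 2.75 (limma interaction -0.18 ± 0.24, adjusted p = 0.75). The BT549 level was then under the dim mark of 5.27, so this difference is uncertain and cannot show an equal knockdown in the lines. With 4 h of selumetinib the order of the line means turned for several genes, the ERK feedback genes DUSP6 and SPRY4 among them. DUSP6 read 6.83 ± 0.50 in MDA231 and 8.01 ± 0.59 in BT549, and SPRY4 5.55 ± 0.40 and 6.49 ± 0.62. EGR1 (5.77 ± 0.43 in MDA231 and 6.22 ± 0.16 in BT549) and HBEGF (8.04 ± 0.57 and 8.63 ± 0.13) turned as well. For EGR1 the order had also turned under siDUSP4, with a line difference of -1.14. At 4 h the median over genes was 6.44, 5.99 and 6.11 in the MDA231 arrays and 6.42, 6.44 and 6.43 in the BT549 arrays. The part of array scaling in these turns was not tested. The interaction for DUSP6 was -2.93 ± 0.29 (limma adjusted p = 2.1e-07). ETV1 differed by 4.86 under siDUSP4, 5.46 after 4 h and 4.51 after 24 h, against 5.96 in the controls. Its interaction was called with siDUSP4 (-1.10 ± 0.16; limma adjusted p = 7.5e-06) and at 24 h (-1.45 ± 0.16; limma adjusted p = 6.5e-08) and not at 4 h (limma adjusted p = 0.095).

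**Figure D5:**
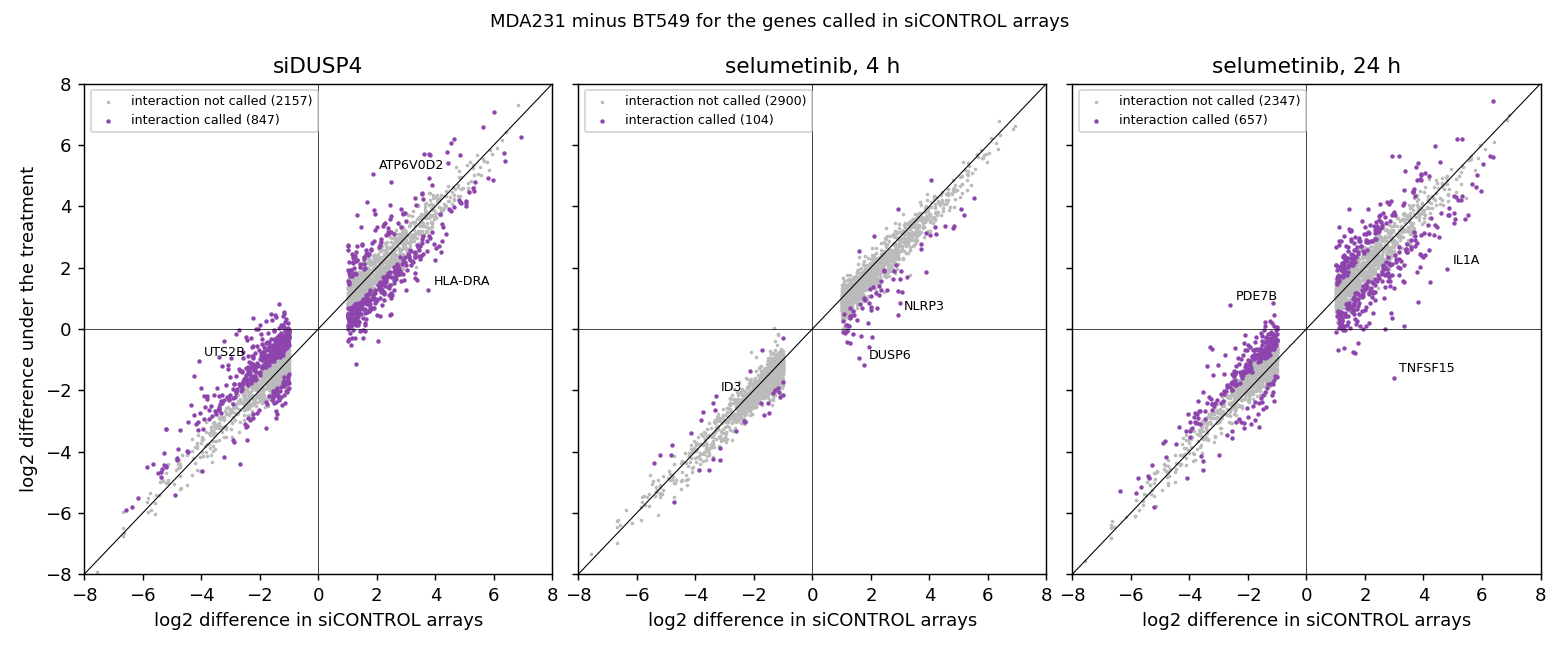
Log2 difference between MDA231 and BT549 in the control arrays (x axis) and under siDUSP4, 4 h and 24 h of selumetinib (y axis) for the 3004 genes called in the control arrays, with the line of equality; purple points have a called interaction (847, 104 and 657). Most points lie near the line, and DUSP6 at 4 h and TNFSF15 at 24 h cross to the other side of 0.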

How the data were processed

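The values are log2 signals from single-colour Affymetrix arrays, made with RMA in Affymetrix Expression Console 1.1 and deposited by the authors, per the submitters' processing notes; its options and genome build are not stated there. RMA usually quantile-normalizes arrays, which assumes similar distributions between lines. Of 33297 probes, 19181 had 1 gene symbol, 2055 several and 12061 were unnamed here; 19143 matched RefSeq and 0 symbols changed. For 895 genes with several probes that of highest mean was kept. A mean for each of the 12 groups of 3 arrays was fitted to all 36 with limma 3.58.1 in R 4.3.3 (lmFit, eBayes; 24 residual and 7.8 prior degrees of freedom), with Benjamini-Hochberg adjustment within each comparison. The script was checked on simulated data. Gene lists and members were chosen with earlier results of these data known. Named were the line's label genes, the 20 largest calls in each direction among named protein-coding genes, and up to 4 called members per list and direction. The 6 largest interactions in each direction were taken among such genes called in the control comparison. Further members were chosen for description after their values were seen. Alternatives covered scaling, filters, probe choice, fold limits, labels and left-out arrays.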

Additional observations from a re-analysis of the deposited data

Results flagged for a closer look

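The line difference between MDA231 and BT549 changed with treatment, by the test of the interaction (limma, adjusted p under 0.05), for 2394 genes with siDUSP4, 211 with 4 h and 1611 with 24 h of selumetinib. The values below are the change of the log2 line difference, and a negative value means that MDA231 moved down relative to BT549. All of them had a 2-fold line difference in the control arrays.

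With siDUSP4 the class II genes HLA-DRA (-2.49) and HLA-DPA1 (-1.82) and the immediate early gene EGR1 (-2.43) moved down. HLA-DRA was 8.38 ± 0.14 in MDA231 and 7.12 ± 0.10 in BT549 (SD, n = 3), against 10.95 and 7.20 in the controls. INSIG1, a brake on sterol synthesis (-2.42), the circadian repressor gene BHLHE41 (-2.01) and ALDOC (-2.0) moved the same way. The proton pump subunit gene ATP6V0D2 rose to 9.0 ± 0.17 in MDA231 against 3.95 ± 0.08 in BT549 (3.17). UTS2B (3.03), the tryptophan dioxygenase TDO2 (2.87), ELFN1 (2.69), SYNC (2.68) and MATN2 (2.66) also moved up. UTS2B, for one, was 6.27 ± 0.29 in BT549 under siDUSP4 and 8.82 in its controls. MDA231 was under the dim mark for UTS2B in both, at 5.21 and 4.73.

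After 4 h of selumetinib the largest changes listed were in genes known to be induced by growth factors or ERK: DUSP6 (-2.93), HBEGF (-2.54) and SPRY4 (-2.52). NLRP3, the inflammasome sensor (-2.48), CDC42EP2 (-2.28) and RASD1 (-2.15) followed. BT549 was under the dim mark of 5.27 for NLRP3 (4.14 in the controls and 4.09 at 4 h) and near it for RASD1 (5.36 and 5.33). A fall in BT549 could hardly be seen at such levels. The upward changes listed were ID3 (1.1), ZNF385D (1.08), EPGN (1.05), PCDH18 (1.03), IL13RA2 (1.02) and PALMD (1.00). MDA231 was under the dim mark for ZNF385D, EPGN, IL13RA2 and PALMD, both in the controls and at 4 h. The SDs of the MDA231 4 h arrays for DUSP6 and RASD1 were 0.50 and 0.87.

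After 24 h TNFSF15, a TNF family ligand, read 5.74 ± 0.13 in MDA231 and 7.33 ± 0.03 in BT549, against 10.36 and 7.39 in the controls, a change of -4.57. The cystatin CST1 (-3.26), IL1A (-2.86), MYEOV (-2.70), ESM1 (-2.69) and NLRP3 (-2.56) moved down too. BT549 was under the dim mark for IL1A (4.32 in the controls and 4.72 at 24 h) and NLRP3 (4.14 and 4.10). The phosphodiesterase gene PDE7B (3.37), TNFSF10 (2.71), ID3 (2.71), the methyltransferase NNMT (2.54), LOXL4 (2.50) and the TIE2 ligand ANGPT1 (2.46) moved up. NNMT reached 10.42 ± 0.10 in MDA231, where the control mean was 7.94, and was 11.10 ± 0.08 in BT549.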

How the results depend on the processing

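The 3004 calls of the control comparison were 3004 when the 6 control arrays were fitted alone and 3004 with the replicate letter as a block, and 2970 to 3082 with each array left out. They were 2916 after a repeated quantile normalization and 2990 after shifting to a common median, where the lower share was 46.4% in place of 51.7%. A test against 2-fold (treat) left 1860, a 4-fold limit 1040 and no fold limit 8629. Same-letter arrays of the lines had correlations of deviations of -0.03, 0.14 and 0.05, and arrays of different letters -0.22 to 0.13. So few values cannot show or exclude pairing by letter, and the main fit used none. Quantile normalization gave 3677 interactions with siDUSP4 and 328 at 4 h, and the replicate block 2234, 183 and 1519; left-out arrays gave 1750 to 2344, 88 to 3714 and 1165 to 1990 for siDUSP4, 4 h and 24 h. Of 233 named genes followed through the alternatives, 43 had an adjusted p under 0.05 in the main fit but not under treat, counted without regard to the 2-fold limit. Taking the line from the source name, so that arrays titled SUM159PT stand for BT549, gave 2587 calls and the opposite sign for 54 named genes: AKR1C3 -1.42, ALDOC -1.38, ANGPT1 -2.88, ASNS 1.08, ATF3 0.21, BCL2 0.13, BMP7 0.17, CASP1 -3.67, CCL2 1.04, CD44 0.03, CDH1 0.06, CDKN1A 1.26, CDKN2A 0.11, CHAC1 1.42, CTSH 1.69, CYP1B1 1.44, DDIT3 0.23, DSG2 -0.02, EDIL3 -0.30, EGFR 0.96, ENO1 0.15, ERAP2 -2.65, ERBB2 -0.45, FN1 -0.83, GBP2 -1.34, HEY1 0.71, HIF1A -0.03, IFITM1 -2.95, IL18 -0.95, INSIG1 -0.23, KRT8 -0.13, LCP1 -1.22, MAML3 -0.06, MATN2 1.41, MCAM -0.78, MDM2 0.36, MET 0.87, MMP16 0.46, NRG1 2.51, PDE7B 0.57, PSAT1 1.89, PTPRC -1.79, SESN2 1.14, SLC2A3 -0.86, SLC3A2 0.34, SLC7A5 1.05, SNAI2 -0.97, SYNC 0.38, SYT14 0.04, THBS1 -1.54, TRIB2 -0.12, TRIB3 0.02, UTS2B 0.76 and ZEB1 0.57. Genes without a call that changed sign were BCL2 0.01, CD3E 0.03, CD44 0.03, HLA-B 0.06, MDM2 0.08 and PGR 0.03 at a common median, BCL2 0.01, CIITA -0.00 and MDM2 0.03 after quantile normalization, and, with arrays left out, CIITA (-0.06 to 0.05), ERBB2 (-0.04 to 0.07), HLA-B (-0.07 to 0.01), MDM2 (-0.10 to 0.05). These genes lie at a line difference near 0. No signal over background was given, which limits all dim genes.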

Other observations

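The following values were chosen after they were seen and describe where the called genes lie. Order along the chromosome is that of RefSeq on GRCh38.p14, used for names and neighbours only. Of the 5 tested genes on each side of RB1, SUCLA2, MED4, ITM2B and FNDC3A were not called, and LPAR6 (3.52 in MDA231, 5.34 in BT549) and ESD (8.37 and 9.67) were lower in MDA231. Around CDKN2A, the microRNA host gene MIR31HG read 3.43 ± 0.12 in MDA231 and 7.88 ± 0.28 in BT549, and was called lower in MDA231. MIR31 (3.80 and 5.52) and ELAVL2 (4.40 and 6.31) were called lower too. IFNE, DMRTA1, TUSC1 and CAAP1 were not called. Of those, IFNE (3.77 and 4.48) and DMRTA1 (4.86 and 5.20) were under the dim mark in both lines, where a difference could be missed.

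Runs of at least 4 consecutive tested genes called in the same direction numbered 22. The longest held 7 genes of chromosome 4, ABCG2, PPM1K, HERC6, HERC5, HERC3, NAP1L5 and FAM13A, all higher in MDA231 by 1.02 to 3.27 on the log2 scale. On chromosome 6 a run of 5 replication-dependent histone genes (H4C4, H2BC7, H4C5, H2BC8, H2AC8) was lower in MDA231, with differences of -4.29 to -1.97; such genes are near-identical and their probes may share signal. Chromosome 9 held 3 runs of lower genes, from UHRF2 to PTPRD, from PDCD1LG2 to BRD10 and from PSIP1 to CNTLN. By chromosome, 15.7% of the tested genes of chromosome 4 were called higher in MDA231, against 8.07% of all genes, and 16.9% of chromosome 8 and 14.3% of chromosome 7 were called lower, against 8.65%. On chromosome 19 only 3.19% were higher. Copy number was not analysed here.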
